A study of Mus musculus with 6 samples.

Results

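The genes described here are the 502 genes of mouse chromosome 11 that were read with a clear signal in 6 clones of induced pluripotent stem cells (iPSCs), of which clone 1 showed higher signals along the whole chromosome. They were chosen by position and signal: each lies on chromosome 11 in the RefSeq annotation of GRCm38.p6, has a probe set annotated to it alone, and had a mean signal above 500 over the 6 arrays. These 502 genes are part of 1443 genes of chromosome 11 with a probe set of their own, and of 6015 genes on all chromosomes that passed the same signal limit. The chromosome itself was selected on the measured shift of clone 1, the log2 signal of clone 1 minus the median of the other 5 clones, so that shift is a description throughout, with no test. Of the 502 genes, 494 are protein coding, 4 are long non-coding RNAs, 3 are transcribed pseudogenes and 1 is a small nucleolar RNA. Around the signal limit, Efemp1, Zfp692 and Serpinf1 lay just inside with mean signals of 504, 506 and 515 and shifts of 0.39, 0.62 and 0.44, and Ehbp1, Ap1b1 and Cox10 lay just outside with 499, 496 and 487 and shifts of 0.06, 0.21 and 0.09.

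All clones came from embryonic fibroblasts of mice that carry a Nanog-GFP transgene, a reporter of the pluripotent state, and were made with retroviruses for Oct3/4, Sox2, Klf4 and c-Myc, with dsRed as a further marker. Clones 1, 2 and 3 form the (−)/(+) group, in which 3i was absent from reprogramming and present in maintenance. Clones 4, 5 and 6 form the (+)/(+) group, with 3i throughout. The mixture called 3i holds CHIR99021, an inhibitor of GSK3, PD184352, an inhibitor of MEK, and SU5402, an inhibitor of FGF receptors. The cells were kept with LIF on mitotically inactivated SNL feeder cells, and each clone, a single line, was hybridised undifferentiated to 1 Affymetrix Mouse Genome array, so that 3 arrays per group limit the precision. DNA copy number was not analysed here. The paper describes CGH arrays of its iPSC lines and states that both groups had similar frequencies of genetic alteration. What those arrays show for each clone was not examined here. All 12 pluripotency markers examined had signals above 500 on average, with summed signals of 112300 in clone 1 and 120879 to 132475 in the others. The shift of clone 1 was below 0 for each of them (median -0.19). Of all genes above 500 on other chromosomes, 54.8% were at or below 0 in clone 1. This share was 46.2% at signals of 500 to 1000, where Utf1 lies, and 59.0% at 2000 to 4000, where Esrrb and Zfp42 lie. It was 66.0% at 4000 to 8000, where Tfcp2l1 and Tbx3 lie. For the ranges of the remaining markers it was 75.5% at 8000 to 16000 and 87.6% at 16000 to 50000. Of 25 measured fibroblast markers, which feeder cells or unreprogrammed cells could bring, 6 exceeded 500, and the list summed to 34672, 43298 and 44216 in the (−)/(+) clones, compared with 23087, 26570 and 25652 in the (+)/(+) clones. The shift of clone 1 was above 0 for 20 of the 25, with a median of 0.39, and for 18 of the 23 that lie on other chromosomes, with a median of 0.32. The median of the fibroblast markers of other chromosomes was thus close to that of the chromosome 11 genes described here. The summed signal, in which bright genes such as Vim and Fn1 weigh most, was lower in clone 1 than in clones 2 and 3. It was higher in clone 1 than in the (+)/(+) clones, which make up 3 of the 5 reference clones. Against clones 2 and 3 alone, the chromosome 11 genes had a median shift of 0.28. The median of the fibroblast markers against clones 2 and 3 is not given here. The part of the fibroblast markers in the shift of chromosome 11 was not tested. The weakest of them, Lum, averaged 21.4. Whether feeder cells were removed before RNA was taken is not given in the sources used here, and in such bulk RNA fewer cells of a type and less RNA per cell cannot be told apart.

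Mouse pluripotent cells in long culture recurrently gain whole chromosomes, and chromosome 11 is among those gained most often. A cell with 3 copies of a chromosome in place of 2 has 1.5 times the DNA of each gene on it, a log2 difference of 0.58. Transcripts often follow the number of gene copies roughly in proportion, but feedback on transcription or on RNA stability can hold a transcript nearer to its usual level. For subunits of protein complexes, a surplus of protein is often removed by degradation, which RNA measurements do not see. Imprinted genes are a special case, because only the copy from 1 parent is active and the effect of an added copy depends on its parental origin. Chromosome 11 carries such a gene in Grb10, which encodes an adaptor protein that restrains insulin and growth factor signalling and is transcribed in most tissues from the maternal copy.

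Grb10 had the lowest shift of all 502 genes, while Ddc, which lies close to it and encodes the decarboxylase that makes dopamine and serotonin, was higher in clone 1 than in every other clone. The RefSeq promoters of this pair, each running from 250 bases before to 50 bases after a transcript start in GRCm38.p6, are shown so that neighbours with opposite shifts can be compared base by base. All lie on the minus strand of chromosome 11 and are written in the direction of transcription, with CpG dinucleotides, the sites of DNA methylation, in capitals. The first Grb10 promoter, at chr11:12037371-12037670, holds 45 CpG dinucleotides and has 80% G and C, and the other, at chr11:12027922-12028221, holds 9 with 52.3%. The Ddc promoters, at chr11:11898095-11898394 and chr11:11890359-11890658, hold 2 and 5 CpG dinucleotides with 41.3% and 54.3% G and C, and the first of them contains the letters TATAAA on the opposite strand, seen as tttata in the sequence as written.
Grb10, first promoter: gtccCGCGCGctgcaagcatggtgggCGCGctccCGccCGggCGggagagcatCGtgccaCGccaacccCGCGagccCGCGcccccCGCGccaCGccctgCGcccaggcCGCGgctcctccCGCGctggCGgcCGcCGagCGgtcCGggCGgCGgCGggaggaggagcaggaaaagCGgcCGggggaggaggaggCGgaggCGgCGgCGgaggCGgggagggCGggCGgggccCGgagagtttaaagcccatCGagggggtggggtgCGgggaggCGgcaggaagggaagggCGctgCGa
Grb10, other promoter: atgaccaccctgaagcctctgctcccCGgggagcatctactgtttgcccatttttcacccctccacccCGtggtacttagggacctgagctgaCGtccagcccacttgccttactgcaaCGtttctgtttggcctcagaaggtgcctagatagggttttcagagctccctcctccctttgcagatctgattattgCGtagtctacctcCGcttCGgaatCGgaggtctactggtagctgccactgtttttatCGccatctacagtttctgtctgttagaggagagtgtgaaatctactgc
Ddc, first promoter: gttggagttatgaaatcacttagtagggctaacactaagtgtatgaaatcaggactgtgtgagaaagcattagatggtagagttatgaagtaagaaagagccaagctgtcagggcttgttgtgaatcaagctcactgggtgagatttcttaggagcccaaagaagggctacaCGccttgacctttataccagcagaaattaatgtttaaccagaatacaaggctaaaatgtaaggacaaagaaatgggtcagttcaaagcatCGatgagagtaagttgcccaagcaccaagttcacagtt
Ddc, other promoter: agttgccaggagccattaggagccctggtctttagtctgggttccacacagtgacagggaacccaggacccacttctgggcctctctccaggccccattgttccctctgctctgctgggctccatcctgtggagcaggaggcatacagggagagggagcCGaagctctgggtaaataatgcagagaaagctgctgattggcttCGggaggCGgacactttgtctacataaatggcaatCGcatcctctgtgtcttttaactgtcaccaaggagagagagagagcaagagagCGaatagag

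Over the 502 genes the median shift of clone 1 was 0.31 on the log2 scale, or 1.24-fold, with quartiles of 0.15 and 0.48 and a range from -1.66 to 1.87. Over 5513 genes on other chromosomes that passed the same signal limit, the median was -0.02. The medians of the other 19 chromosomes in clone 1 lay between -0.07 and 0.01. On chromosome 11 the same measure gave medians of -0.03 and 0.03 in clones 2 and 3 and of -0.09, -0.04 and -0.07 in clones 4, 5 and 6. The median of clone 1 was therefore apart from every other chromosome of the same clone and from chromosome 11 of every other clone, and it was below the log2 difference of 0.58 that 1.5-fold would give.

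The shift differed from gene to gene, with an interquartile range of 0.33. Genes on other chromosomes spread nearly as widely around their own median, with 0.28, so much of this scatter is not particular to chromosome 11. Clone 1 was over 1.25-fold higher for 245 genes (48.8%), against 6.77% of genes on other chromosomes, and over 1.5-fold higher for 71 (14.1%), against 1.38%. A further 211 genes lay above 0 but no more than 1.25-fold higher. The shift was at or below 0 for 46 genes (9.16%), against 54.8% elsewhere, and over 1.25-fold lower for 8 (1.59%), against 9.18%. Clone 1 had the highest signal of the 6 clones for 346 genes (68.9%), against 14.1%, and the lowest for 10 (1.99%), against 20.3%. These 10 were Grb10, Tug1, Cobl, Fancl, Tmem256, Gm12338, Pipox, Gm11545, Gm11517 and Atp5h. The shares on other chromosomes are given as background, since the chromosome was picked for this shift.

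**Figure D1:**
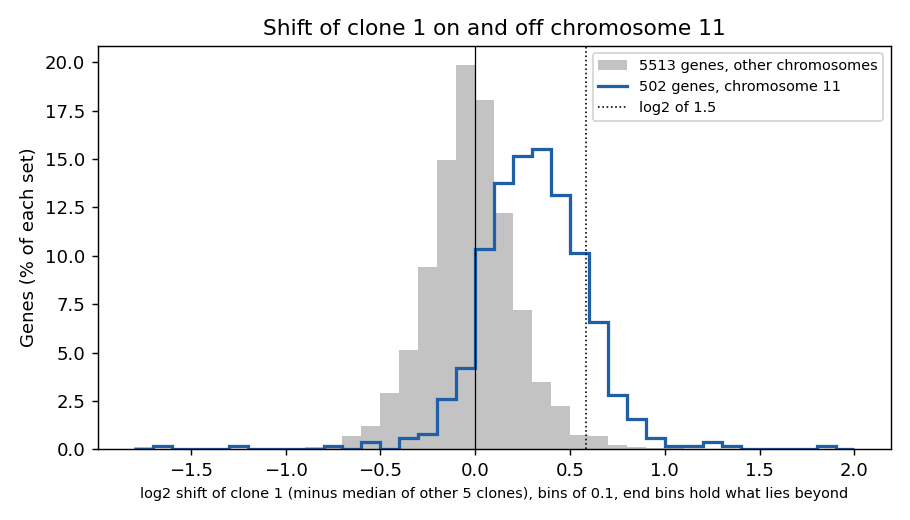
Distribution of the log2 shift of clone 1 (x axis, in bins of 0.1) as a percentage of genes (y axis) for 502 genes of chromosome 11 (blue line) and 5513 genes of other chromosomes (grey), with the log2 of 1.5 as a dotted line. The blue distribution is centred on 0.31, the grey one on -0.02, and both overlap.

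The shift ran along the whole chromosome. With the genes taken in chromosomal order in blocks of 20, the median of clone 1 lay between 0.20 and 0.44 in 25 full blocks, and clone 1 had the highest median of the 6 clones in 25 of 25. The block medians of the other clones lay between -0.17 and 0.12 for clone 2, between -0.08 and 0.19 for clone 3, between -0.20 and 0.00 for clone 4, between -0.14 and 0.03 for clone 5 and between -0.22 and 0.01 for clone 6. From Ppp3r1 to Tnip1, 5 successive blocks were at 0.20 to 0.24, and the next block, from Gm2a to Flcn, was at 0.40. The block from 2210409E12Rik to Slc35b1 was also low, at 0.22. Near the far end, the block from Sap30bp to Rnf213 was highest at 0.44, and the last 2 genes, Wdr45b and Tbcd, had a median of 0.15. Each full block held genes on both sides of 1.25-fold, with 5 to 14 of 20 genes over it. In the 5 blocks from Ppp3r1 to Tnip1 these were 8, 5, 8, 7 and 8 genes. High and low shifts were thus mixed in every full block, but not evenly along the chromosome.

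**Figure D2:**
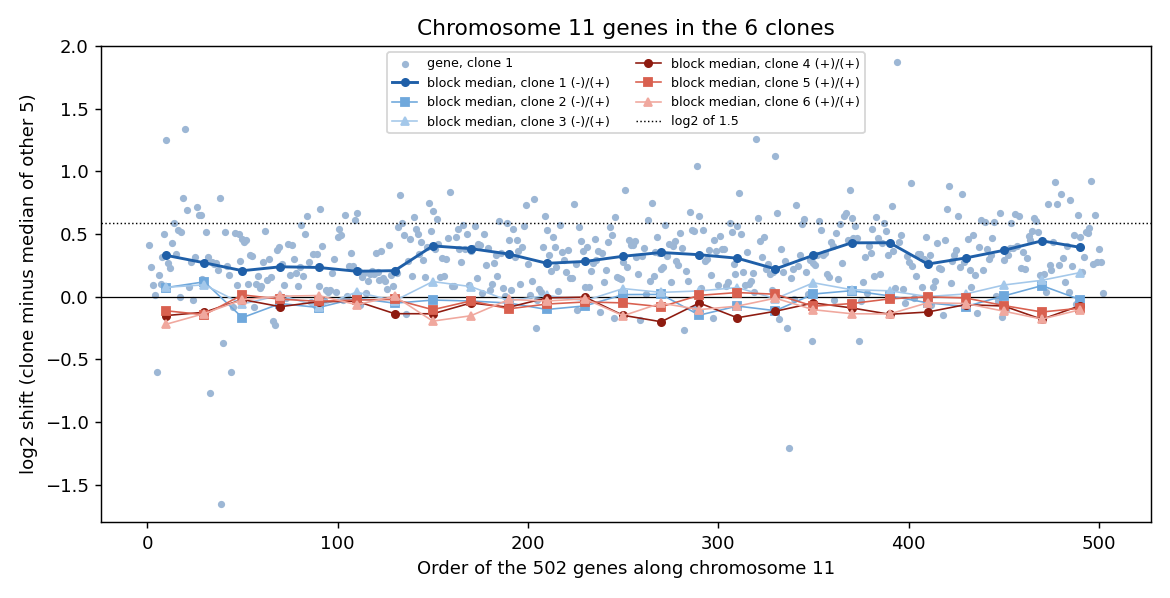
Log2 shift (y axis) of the 502 genes in their order along chromosome 11 (x axis): pale points are single genes in clone 1, lines join the medians of blocks of 20 genes for each clone, and the dotted line is the log2 of 1.5. The dark blue line of clone 1 stays between 0.20 and 0.44 and above the lines of the other 5 clones.

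The shift was smaller for probe sets with higher signals. For members with a mean signal of 500 to 1000 the median shift was 0.39 (n = 145), and it was 0.31 for 1000 to 2000 (n = 129), 0.33 for 2000 to 4000 (n = 122) and 0.29 for 4000 to 8000 (n = 56). It was 0.16 for signals of 8000 to 16000 (n = 32) and 0.05 for signals of 16000 to 50000 (n = 18). The medians of genes of other chromosomes went from 0.02 to -0.09 over the same ranges, and the difference between members and these genes was 0.37, 0.31, 0.36, 0.36, 0.23 and 0.13 from the lowest to the highest range. The distance to other chromosomes was thus much the same up to a signal of 8000 and smaller beyond it. In clone 4, whose chromosome 8 had a median shift of 0.46, the distance of chromosome 8 from the other chromosomes was 0.45, 0.52, 0.46 and 0.44 in the first 4 ranges and 0.37 above 8000 (n = 23), with medians on chromosome 8 of 0.37, 0.47, 0.46, 0.49 and 0.49. The part of the scanner's upper range and of gene function in the low shifts of members with high signals was not tested. Below the limit of 500, the genes of chromosome 11 had medians of 0.34 at 200 to 500 (n = 197), 0.28 at 100 to 200 (n = 147), 0.19 at 50 to 100 (n = 176) and 0.04 under 50 (n = 421), where the log2(signal + 16) scale compresses differences.

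**Figure D3:**
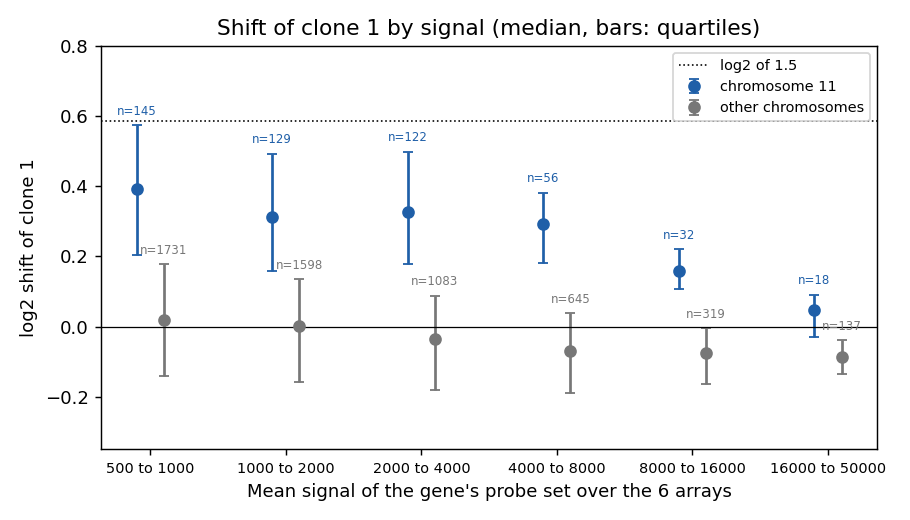
Median log2 shift of clone 1 (y axis, bars from the lower to the upper quartile) by the mean signal of the probe set (x axis) for genes of chromosome 11 (blue) and of other chromosomes (grey), with the number of genes above each bar. Blue medians go from 0.39 to 0.05 and grey medians from 0.02 to -0.09.

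The reference itself mattered for some genes, because 3 of the 5 other clones belong to the (+)/(+) group. Against clones 2 and 3 alone, the median shift of the 502 genes was 0.28 (1.21-fold), and clone 1 was above both clones for 402 genes (80.1%), compared with 30.8% of genes on other chromosomes, whose median was -0.03. By this reference 51 genes were at or below 0, and 21 genes were so by both references. Among the latter were Grb10, Tug1, Cobl, Krt42, Fancl, Pipox, Mnt, Ubtf and Ewsr1. Timp2, Serpinf1, Efemp1, Adam19, Igfbp3, C1d and Gm11544 took the opposite sign, and their signals divided by group rather than setting clone 1 apart. In all, 55 members lay on the other side of 0 by this reference, 25 of them at or below 0 against all 5 clones, and these 7 were the ones whose shift had exceeded 1.25-fold in size.

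Protein complexes whose subunits are spread over the genome allowed members to be set beside their partners in the same clone, with no test. Of the 36 proteasome genes above the signal limit, 6 lie on chromosome 11 and their median shift was 0.29, against -0.07 for the 30 others. They ranged from 0.15 for Psmb3 to 0.64 for Psmd3, which encodes a subunit of the 19S lid, and 3 of 6 were over 1.25-fold, against 0 of 30. Psmd3 had 3035 in clone 1, 2071 and 2273 in clones 2 and 3, against 1884, 1856 and 1941 in clones 4, 5 and 6, so that clone 1 lay above all others. The 11 mitochondrial ribosome genes on the chromosome had a median of 0.33, against -0.05 for the 65 elsewhere, with 6 and 2 genes over 1.25-fold and a range from 0.10 for Mrps23 to 0.69 for Mrps24.

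The spliceosome and chromatin complexes gave the widest gaps of the 12 complexes examined. Eftud2, Prpf8 and Sf3a1, components of the U5 and U2 particles of the spliceosome, had shifts of 0.47, 0.56 and 0.50, and the 12 genes of the same particles elsewhere had a median of 0.00, with 0 of 12 over 1.25-fold. The SWI/SNF remodelling subunits Smarcd2 and Smarce1 had 0.64 and 0.47, against a median of 0.02 for 11 partners. Suz12, a core subunit of Polycomb repressive complex 2, had 12831 in clone 1, 8122 and 9404 in clones 2 and 3, against 8506, 9917 and 10291 in clones 4, 5 and 6. Its shift was 0.45 while 17 other Polycomb genes had a median of -0.07. Mediator was divided, with 0.48, 0.38 and 0.33 for Med9, Med13 and Med11, 0.14 for Med1, 0.00 for Med7 and -0.11 for Med31, against -0.02 for 16 partners.

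The ribosome and the CCT chaperonin showed the smallest distances of the 12 complexes. Rpl19, Rpl27 and Rpl38, of the large ribosomal subunit, had -0.03, 0.07 and -0.04, against a median of -0.10 for 42 ribosomal protein genes elsewhere. Atp5g1, Uqcr10 and Uqcrq of ATP synthase and complex III had 0.19, 0.22 and 0.19 and Atp5h had -0.11, against -0.10 for 19 partners. Cct4 of the CCT chaperonin had 0.07 against -0.04 for 7 partners, and Cdc27 of the anaphase-promoting complex had 0.23 against 0.01 for 12. Aurkb and Birc5 of the chromosomal passenger complex had 0.45 and 0.22, and their 2 partners had a median of 0.09. A list that joins eIF4A and exon junction genes, and so is not a single assembly, was counted among the 12 complexes. In it Casc3 of the exon junction complex had 0.45 and the helicase gene Eif4a1 had 0.02, against -0.06 for 7 others. The low values of Rpl19, Cct4, Eif4a1 and Atp5h belong to probe sets with signals above 16000. Weaker probe sets were low as well for Atp5h, with -0.08 at a mean signal of 10170.5. For Cct4 they gave 0.08 at 14087 and -0.05 at 840.

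**Figure D4:**
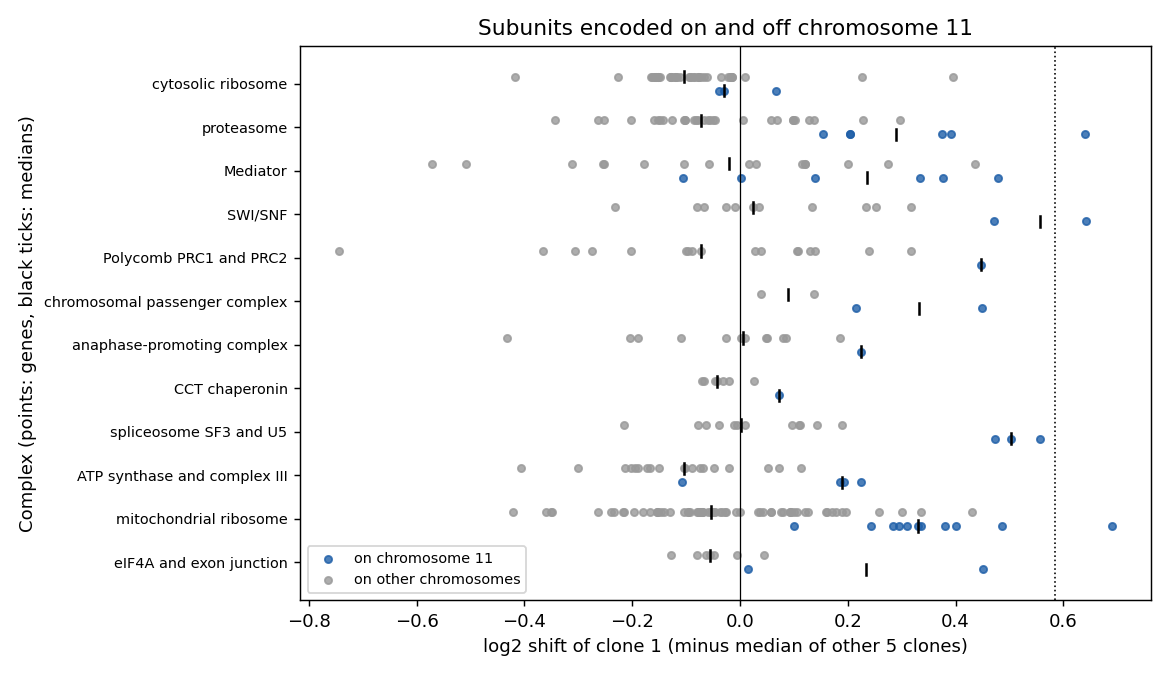
Log2 shift of clone 1 (x axis) for genes of 12 complexes (y axis), with genes on chromosome 11 in blue and partners on other chromosomes in grey, black ticks at the medians and a dotted line at the log2 of 1.5. Blue points of the spliceosome particles and of SWI/SNF lie to the right of every grey partner, while those of the cytosolic ribosome lie among them.

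Members grouped by role had medians on either side of the 0.31 of all 502, and several of their shares over 1.25-fold were near the 48.8% of all members. The lists also hold probe sets of unlike signal, and members at 8000 to 16000 and at 16000 to 50000 had medians of 0.16 and 0.05. The part of signal in the differences between lists was not tested. The 23 genes of the proteasome and ubiquitin list had a median of 0.39, 15 were over 1.25-fold and none was at or below 0. Spop, which recruits substrates to a cullin 3 ligase, had 0.73, Psme3, a proteasome activator, had 0.72, and Nploc4, a cofactor of the p97 segregase, had 0.77. Of 21 chromatin and transcription genes (median 0.40), 12 were over 1.25-fold and 4 were at or below 0. Polr2a, the largest subunit of RNA polymerase II, had 0.78, Bptf, a subunit of the NURF remodeller, had 0.49, and Cbx1, a heterochromatin protein, had 0.29. For Polr2a the signals were 3053 in clone 1, 2147 and 2211 in clones 2 and 3, against 1551, 1777 and 1560 in clones 4, 5 and 6, with clone 1 above all others and clones 2 and 3 above the 3 (+)/(+) clones.

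Of 9 tumour suppressor and DNA repair genes (median 0.43), 6 were over 1.25-fold. Rad50, of the MRN complex that binds broken DNA ends, had 2203 in clone 1 and 1042 to 1363 in the others, with a shift of 0.81. Brca1, which acts in homologous recombination, had 3542 in clone 1, 2814 and 2541 in clones 2 and 3, against 2316, 2510 and 2303 in clones 4, 5 and 6, a shift of 0.49. Clone 1 did not overlap the other clones for either gene. Rpa1, which coats single-stranded DNA, had 0.12 and Flcn, the folliculin gene, had 0.08. The mitosis and cell cycle list was lower, with a median of 0.19 over 22 genes and 5 over 1.25-fold. Cdc6, a licensing factor of replication, had 0.63, and Top2a, the topoisomerase that untangles sister chromatids, had 17092 in clone 1 and 11742 to 13417 in the others, a shift of 0.47. Aurkb, a mitotic kinase, had 1549 in clone 1 and 983 to 1258 in the others. Pttg1, the securin gene, and Kpna2, an importin, had 0.05 and 0.08.

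The list of LIF, Wnt and growth factor signalling held 16 members with a median of 0.35, of which 9 were over 1.25-fold and 2 at or below 0. Stat3, the transcription factor through which LIF sustains mouse pluripotent cells, had 910 in clone 1, 825 and 702 in clones 2 and 3, against 580, 547 and 543 in clones 4, 5 and 6. Clone 1 was highest, with a shift of 0.64, and the 3 (−)/(+) clones lay above the 3 (+)/(+) clones. Socs3, an inhibitor of the same pathway, had 0.44, Tob1, an antiproliferative protein that promotes deadenylation, had 0.67, and Map3k3, a kinase upstream of MAP kinases, had 0.70. Skp1, of SCF ubiquitin ligases, and Ppp2ca, the catalytic subunit of protein phosphatase 2A, had 0.13 and 0.15. Only 2 of the 30 embryonic transcription factors of the chromosome that were listed passed the signal limit, Vezf1 at 0.35 and Foxk2 at 0.38.

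The other lists ranged from near 0 to above the median of all members. For 16 metabolic genes the median was 0.36, with 11 over 1.25-fold. Fasn, fatty acid synthase, had 0.92, and Pgs1, which makes a precursor of cardiolipin, had 0.91. Acly, which supplies acetyl-CoA, had 0.31, and Mdh1, malate dehydrogenase, had -0.08. Weaker probe sets above 500 gave 0.90 and 0.40 for Acly and 0.17 and 0.29 for Mdh1. Over 24 genes of the respiratory chain and mitochondria list the median was 0.26, with 10 over 1.25-fold, and C1qbp and Nme2 had 0.19 and 0.05. Over 12 genes of the translation list the median was 0.31, with 6 over 1.25-fold. Tsr1, a ribosome assembly factor, had 0.35 and Eif5a, which helps ribosomes through stalled sequences, had -0.03. A weaker probe set of Eif5a, with a mean signal of 7976, had 0.21, and one of C1qbp, at 12734, had 0.35. Over 26 splicing and RNA-binding genes it was 0.30, with 13 over 1.25-fold and 3 at or below 0. Kpnb1, an importin, had 0.60, and the splicing factors Srsf1 and Srsf2 had 0.10 and 0.17. Hnrnpab had 0.13, Xpo1, the nuclear export receptor, had 0.09, and the helicase gene Ddx5 had -0.01. Weaker probe sets above 500 lay between -0.29 and 0.37 for Hnrnpab and between -0.04 and 0.16 for Ddx5. Over 23 genes of membrane traffic, cytoskeleton and chaperones it was 0.18, with 9 over 1.25-fold, and Actg1, a cytoplasmic actin, had 0.04, Rtn4 0.17 and Hspa4 0.18.

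At the upper end, Ifi35, an interferon-induced gene, had the highest shift, 1.87. Its signals were 1603 in clone 1, 652 and 837 in clones 2 and 3, against 400, 416 and 426 in clones 4, 5 and 6. Clone 1 was above all others, and clones 2 and 3 were also above the (+)/(+) clones. This probe set is of a kind that can match several transcripts, and 2 weaker ones of Ifi35, with mean signals of 166 and 151, had shifts of 1.12 and 0.43. Ccdc117 had 1538 in clone 1, 578 in both clone 2 and clone 3, and 694, 1011 and 599 in clones 4, 5 and 6, with a shift of 1.34. Castor1, the arginine sensor of the mTORC1 pathway, had 1747 in clone 1 and 545 to 899 in the others, a shift of 1.25. For both genes clone 1 stood apart. For Ccdc117 clones 2 and 3 were the lowest, and for Castor1 the other clones overlapped between groups.

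Spag9, a scaffold protein of JNK signalling, had 4397 in clone 1 and 1979 to 2535 in the others, a shift of 1.12. Taf15, an RNA-binding protein of the FET family, had 1353 in clone 1 and 508 to 942 in the others, a shift of 1.04. Fasn had 4657 in clone 1, 2299 and 3278 in clones 2 and 3, against 2779, 2455 and 2372 in clones 4, 5 and 6. In all 3 clone 1 was well above the highest other clone, and the shift exceeded the 0.58 of 1.5-fold. Hrob, a homologous recombination factor, and Limd2 had 0.90 and 0.88. Elobl, an elongin B-like gene, had a shift of 1.26 but signals of 4504, 405 and 2090 in clones 1, 2 and 3, compared with 1253, 2951 and 1872 in clones 4, 5 and 6, so that clone 2 lay further below the other clones than clone 1 lay above them.

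**Figure D5:**
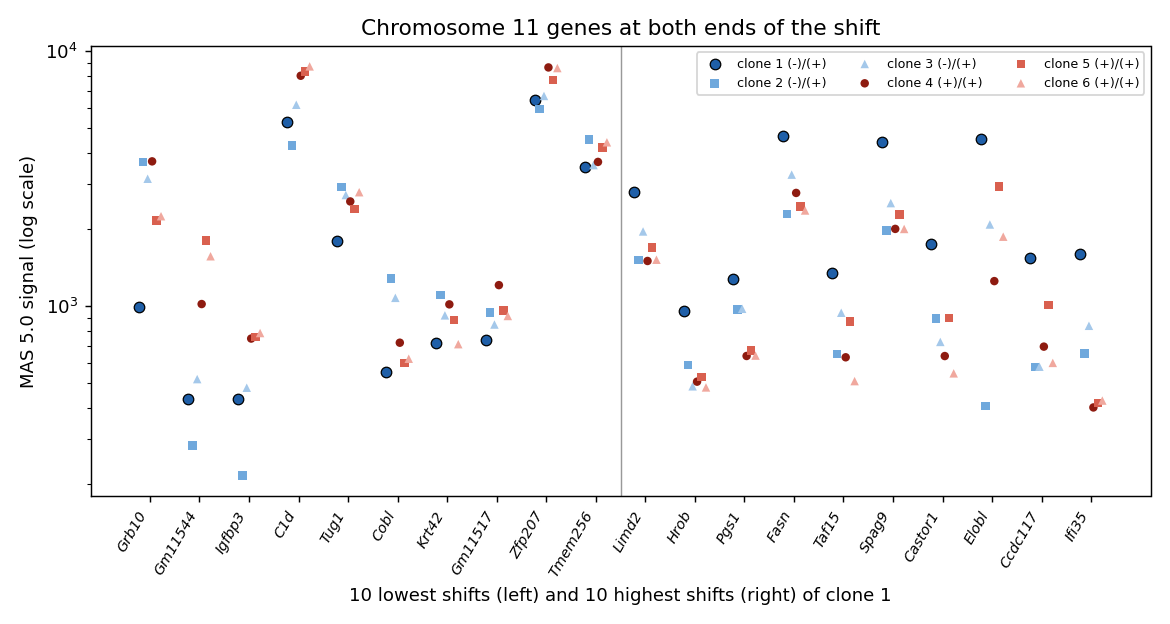
MAS 5.0 signal on a log axis (y axis) of the 10 genes with the lowest and the 10 with the highest shift of clone 1 (x axis), 1 point per clone, (−)/(+) clones in blue and (+)/(+) clones in red. Clone 1 is the ringed dark blue point, lowest for Grb10 at 990 and highest for Ifi35 at 1603, while Gm11544, Igfbp3 and C1d divide by group.

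At the lower end, Grb10 had a signal of 990 in clone 1, 3680 and 3159 in clones 2 and 3, against 3696, 2168 and 2252 in clones 4, 5 and 6. Clone 1 was below every other clone, with a shift of -1.66, and the groups of the other clones overlapped. Of 2 weak Grb10 probe sets, with mean signals of 113 and 79.6, the first had -0.77 and the second -0.03. Along the chromosome the genes with signal on one side of it, Fignl1 and Ddc, had shifts of 0.22 and 0.79. Ddc had 1886 in clone 1, 1472 and 1316 in clones 2 and 3, against 1018, 1049 and 1086 in clones 4, 5 and 6. On the other side, Cobl, which nucleates actin filaments, had 554 in clone 1, 1282 and 1078 in clones 2 and 3, against 719, 597 and 622 in clones 4, 5 and 6, with a shift of -0.37. Clone 1 was lowest for Cobl but close to clones 5 and 6. Between Grb10 and Cobl, the weakly read LOC102631979 had a mean signal of 115 and a shift of -0.76. Cobl, Ddc and Grb10 belong, with Commd1 (0.17), to the 4 members of the imprinted gene list. A second Commd1 probe set, with a mean signal of 2433, had -0.15. Parent-of-origin expression has been described for these 4 genes in some tissues, and the parental origin of the transcripts was not measured here.

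Tug1, a long non-coding RNA, had 1796 in clone 1, 2927 and 2728 in clones 2 and 3, against 2574, 2399 and 2798 in clones 4, 5 and 6. Clone 1 was lowest by this probe set, with -0.60, but 2 further probe sets of Tug1 gave -0.12 and 0.05. Zfp207, a kinetochore protein that binds microtubules, had -0.26, while its 5 probe sets of lower signal had shifts between 0.42 and 0.92. The remaining low genes were Krt42 (-0.35), a keratin gene, and Gm11517 (-0.35) and Tmem256 (-0.25), and clone 1 lay close to the nearest other clone for all 3.

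A second probe set reads another part of a transcript on the same array, so it is no replicate of the clone but is less tied to 1 set of probes. For 190 members with more than 1 probe set above 500, the median shift was 0.30 over the probe sets used and 0.31 over 280 others. Of the 280, 251 were above 0 and 136 over 1.25-fold. All probe sets were above 0 for 153 members, lay on both sides for 34 and were at or below 0 for 3, namely Atp5h, Luc7l3 and Slc9a3r1. The median gap between the highest and lowest probe set of a gene was 0.14.

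The promoters of the members resembled those of other genes with signal. Of the 502 members, 438 (87.3%) matched an entry of the RefSeq promoter table, with a median of 61.7% G and C and 23 CpG dinucleotides in 300 bases. Genes with signal on other chromosomes had the same medians, 61.7% and 23, and all 27025 RefSeq promoters had 52.7% and 7. The GC box, searched as GGGCGG on both strands, was present in 67.6% of the members' promoters, 69.8% of those of other genes with signal and 35.9% of all promoters. The TATA box, searched as TATAAA on both strands, was present in 7.08%, 6.19% and 14.2%. The core of the interferon response element, searched as GAAANNGAA on both strands, was present in 4.34%, 6.92% and 8.57%, and not in the Ifi35 window. The E-box CACGTG was present in 12.6%, 11.9% and 7.24%.

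Set against the shift, the 30 members with under 50% G and C had a median shift of 0.25 and the 82 with 70% or more had 0.39. Across the 438 genes Spearman's rho was 0.15 in clone 1, as a description over genes of the same arrays. In clone 4, on the same genes, it was -0.12, and over 4538 genes on other chromosomes it was 0.10 in clone 1 and -0.07 in clone 4. The 168 members with the highest shifts had a median of 63.3% G and C and the other members 60.7%. Those 168 genes had medians of 0.16 in clone 3 and -0.22 and -0.18 in clones 4 and 6, whereas the 167 with the lowest shifts had -0.06, 0.02 and 0.02. The shift of clone 1 is itself taken against these clones.

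The comparison between the groups was the only comparison with replicates, and clone 1 takes part in it. Of the 502 genes, 4 were higher and 15 lower in the (+)/(+) clones (limma, adjusted p under 0.05 over 22518 probe sets), which is 0.797% and 2.99% against 1.35% and 1.77% of all probe sets. The median log2 difference was -0.15 with 74.3% of members below 0, while the 5513 genes of other chromosomes with the same signal limit had 0.004 with 49.3% below 0. With clone 1 left out, the members had -0.05 with 57.2% below 0 and the other genes -0.001 with 50.1%. The members thus lay lower in the (+)/(+) clones by a median distance that was smaller, but not absent, without clone 1. Without clone 1, 9 members were higher and 13 lower (1.79% and 2.59%, against 1.96% and 2.27% of all probe sets), of which 13 were also called with 6 arrays. When arrays were scaled to a common median, 11 members were higher and 6 lower with 6 arrays. The median difference of the members then moved from -0.15 to 0.01. For all 10643 tested genes that are not members, a wider set than the 5513, it moved from -0.05 to 0.11.

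Of the 19 members called with 6 arrays, 6 belonged to the list of fibroblast and mesenchymal genes. Timp2, an inhibitor of matrix metalloproteinases, had 1446, 1579 and 2061 in clones 1, 2 and 3, compared with 729, 858 and 737 in clones 4, 5 and 6. The groups did not overlap, and the log2 difference, (+)/(+) minus (−)/(+), was -1.10 (95% interval -1.43 to -0.77, limma, adjusted p = 0.0074) and -1.21 without clone 1 (adjusted p = 0.0047). Serpinf1, a secreted serpin, had 545, 735 and 740 against 327, 398 and 348, a difference of -1.02 without clone 1 (limma, adjusted p = 0.0074). Adam19, a metalloproteinase, and Efemp1, a fibulin, had differences of -0.74 and -1.03 in the same fit, both called, and Sparc, a matrix glycoprotein, had -0.47 with 6 arrays. Tns3, a tensin of focal adhesions that is not on the list, had -0.57 without clone 1 and was also called. Igfbp3, which binds insulin-like growth factors, was higher, with 432, 216 and 478 in clones 1, 2 and 3 against 746, 758 and 784 and a difference of 1.20 without clone 1 (limma, adjusted p = 0.036). Of the 8 members on that list, 5 were lower and 1 higher with 6 arrays, and 4 lower and 1 higher without clone 1. The summed fibroblast markers given above were also lower in the (+)/(+) clones, and their part in these differences was not tested.

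Other members differed between the groups without clone 1. Gm11544, an unnamed gene model, had 431, 284 and 517 in clones 1, 2 and 3, compared with 1019, 1806 and 1569 in clones 4, 5 and 6, a difference of 1.85 (limma, adjusted p = 0.0081). Spdl1, which brings dynein to kinetochores, and Znhit3, a factor of snoRNP assembly, were higher by 0.67 and 0.61 on the log2 scale. Clone 1 had 2323 for Spdl1, where clones 2 and 3 had 1523 and 1704 and clones 4, 5 and 6 had 2437, 2608 and 2698, and with clone 1 in the fit the adjusted p was 0.093. Cobl had a difference of -0.85 without clone 1 (limma, adjusted p = 0.015) and was not called with it (adjusted p = 0.29). Tex19.1, a germline and placental gene, was higher by 0.85 without clone 1 (adjusted p = 0.029), where clone 1 had 3820 against 1108 and 1750 in clones 2 and 3. Ifi35 was lower in the (+)/(+) clones in both fits, with -1.18 (limma, adjusted p = 0.043) and with -0.81 without clone 1 (limma, adjusted p = 0.022), and so the difference did not rest on the high value of clone 1. Llgl1, a polarity gene, was higher by 0.70 without clone 1 (limma, adjusted p = 0.037), and clone 1, at 1638, lay within the 1255 to 1760 of the (+)/(+) clones.

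The role lists are given beside the 1.35% of all probe sets called higher and the 1.77% called lower, and a count of 0 in lists this short is near that background. With 6 arrays, limma called 0 of 22 mitosis genes, of which 2 had an unadjusted p under 0.05, and 0 of 24 genes of the respiratory chain and mitochondria list, also with 2. It called 0 of 12 genes of the translation list (1 unadjusted), 0 of 9 tumour suppressor and DNA repair genes (4 unadjusted), 0 of 26 splicing and RNA-binding genes (7 unadjusted) and 0 of 23 genes of membrane traffic, cytoskeleton and chaperones (8 unadjusted). Without clone 1 the counts were 0 in the same lists except for Alyref, an mRNA export factor of the splicing list, which was higher by 0.49 (limma, adjusted p = 0.047). In the proteasome and ubiquitin list Trim25, an E3 ligase of antiviral signalling, and Spop were lower (-0.46 and -0.62), among metabolic genes Pgs1 was lower (-0.70), and among chromatin genes Zfp207 was higher (0.39). Over all 502 members 139 had an unadjusted p under 0.05 with 6 arrays and 124 without clone 1. No source used here states hybridisation or scan batches, and any batch running with the groups cannot be told apart from the groups.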

How the data were processed

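RNA of 6 clones was hybridised to Affymetrix arrays read in 1 colour. The authors deposited linear MAS 5.0 signal intensities, and on every array the mean after trimming 2% of values at either end was 500.0, so they had scaled the arrays to 1 level. Of 45101 probe sets, 64 controls were left out, and 34737 of 34945 with 1 symbol had a chromosome in RefSeq GRCm38.p6. The array file names no build, so gene positions are used as order only. Each gene was read by its probe set with the highest mean log2(signal + 16), and no further normalization was applied. The groups were compared with limma 3.58.1 in R 4.3.3 (lmFit, eBayes with trend, group alone, Benjamini-Hochberg) over the 22518 brighter probe sets, those above the median in mean log2 signal, tested on simulated data beforehand. The p-values measure the spread between 3 clones per group, 1 array each. Descriptions and figures used Python 3.11.15, pandas 2.3.3 and matplotlib 3.10.9.

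The members, gene lists, complexes and tests were chosen with earlier results of these data known. Named are the 10 highest and 10 lowest shifts, up to 4 members of each list with the highest signal, genes picked for known roles, up to 10 members called without clone 1, and the 3 genes on either side of the signal limit. Others were named after their values were seen. Some genes sit loosely in their lists, such as Rpa1 and Fbxl20 under translation, Coil and Ndel1 under mitochondria and Tefm under DNA repair. Alternatives were pseudocounts of 1 and 64, quantile normalization, a common median, other signal limits and filters, averaging a gene's probe sets, other references, eBayes without trend, arrayWeights and leaving out each clone. Centring on genes of other chromosomes was added after seeing the data.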

Additional observations from a re-analysis of the deposited data

How the results depend on the processing

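The median shift of clone 1 kept its direction under every alternative tried and moved by more than the spread of the other clones' medians under 1 of them. With each array scaled to a common median it was 0.20, with 155 members over 1.25-fold, 33 over 1.5-fold and 107 at or below 0, but the genes of other chromosomes were then at -0.13, so the distance between both was 0.33, compared with 0.34 as deposited. A mean signal above 200 gave 108 members over 1.5-fold and 75 at or below 0, and one above 1000 gave 155 over 1.25-fold and 37 over 1.5-fold, since more or fewer genes were counted. Leaving out each other clone gave medians of 0.29 to 0.32, with 228 to 250 members over 1.25-fold, 59 to 87 over 1.5-fold and 39 to 49 at or below 0. Against clones 2 and 3 alone 55 members changed side, and of those beyond 1.25-fold Igfbp3 (0.40), C1d (0.045), Gm11544 (0.16), Efemp1 (-0.43), Serpinf1 (-0.43), Timp2 (-0.32) and Adam19 (-3.2e-05) did so.

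The group counts were less stable. Against 4 members higher and 15 lower in the (+)/(+) clones, quantile normalization gave 2 and 10, a common median 11 and 6, no filter 1 and 4, eBayes without trend 1 and 3, arrayWeights 13 and 60, and averaging a gene's probe sets 1 and 6. Leaving out 1 clone gave 0 to 9 higher and 0 to 13 lower: omitting clone 1 gave 9 and 13, clone 2 gave 3 and 12, clone 3 gave 2 and 1, clone 4 gave 1 and 3, clone 5 gave 1 and 1, and clone 6 gave 0 and 0, where limma gave 90 members an unadjusted p under 0.05. Apart from the construction of each alternative, the cause was not tested. Of the 19 calls, Timp2 and Gm11544 passed in 15 of 16 alternatives, Adam19 in 12, Serpinf1 in 11, C1d and Mprip in 10, Pgs1 in 9, Ifi35, Larp1, Tns3 and Trim25 in 8, Igfbp3 in 7, Mif4gd, Myo1c, Sparc and Spop in 6, and Dcaf7, Efemp1 and Zfp207 in 5. With probe sets averaged, Zfp207 reversed to -0.13. Centring on genes of other chromosomes, chosen after seeing the data, gave 3 and 15. No paired analysis was possible because no clone number occurs in both groups. Arrays limit high and low signals alike, and 1 array per clone gives no error for a single clone.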
